A study of Mus musculus with 6 samples.

Results

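The tumour suppressor p53 is a transcription factor that DNA damage and other stresses stabilise. It binds response elements near its target genes and raises their transcription, and the products of these genes arrest the cell cycle, trigger apoptosis, signal to other tissues or, as with Mdm2, feed back to remove p53. In the liver its targets are followed as a readout of genotoxic and metabolic stress, and in bile duct cells the Fas death receptor has been studied as a route to cholangiocyte loss.

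The 10 genes described here are p53 targets for feedback, apoptosis and stress: Mdm2, Bbc3, Bax, Ccng1, Trp53inp1, Phlda3, Zmat3, Fas, Gdf15 and Eda2r. They were chosen by gene name from knowledge of the pathway, with earlier results of these data known. The cell cycle inhibitor gene Cdkn1a was left out, and all 10 are among the 21700 genes of the table. The cells were biliary epithelial cells, which line the bile ducts, sorted by flow cytometry from livers of female C57BL/6 mice of wild-type genotype. One group was not pregnant (3 libraries) and the other was pregnant at dpc8, 8 days post coitum (3 libraries), and no other treatment or allele is named for either. The sources used here give no ages, pooling of animals or antibodies of the sort. The labels do not state that each library came from its own mouse either, so p-values measure the spread between these libraries only, which may be technical.

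Values are FPKM, fragments per kilobase of exon scaled between libraries, and each library held between 25047887 and 35083751 fragments recovered from them. How they were scaled is not stated, but their median-ratio size factors were 1 in all 6 libraries. Levels of different genes can be compared on this scale because it is per length. The biliary markers Krt19 and Epcam stood at 220 to 337 and at 182 to 184 FPKM in non-pregnant libraries, and at 343 to 386 and 190 to 195 FPKM in pregnant ones. The 7 biliary markers together summed to 4877 to 6167 and to 6618 to 7109 FPKM. Markers of other cells were also present. The hepatocyte gene Alb stood at 1973 to 2550 FPKM over the 6 libraries. The 8 hepatocyte markers summed to 2884 to 3611 FPKM without pregnancy and to 2489 to 2850 FPKM at dpc8, and the 6 stellate cell markers to 10.9 to 13.1 and to 7.71 to 10.04 FPKM. The 12 Kupffer cell (liver macrophage) markers summed to 57.4 to 90.4 FPKM in non-pregnant and 110 to 181 FPKM in pregnant libraries. None was at 0 in any library, and Cd5l, a macrophage protein, stood at 0.363 to 1.40 against 9.29 to 20.1 FPKM. Of the 10 tested, 8 were higher without overlap, while Csf1r and Cd68, the most abundant, overlapped. The 8 proliferation markers summed to 36.2 to 37.9 and to 41.8 to 59.4 FPKM. These biliary, hepatocyte, stellate, Kupffer cell and proliferation sums did not overlap between the groups, and their part in the differences below was not tested. Each sum is weighted to its most abundant genes, such as Spp1 (3941 to 5941 FPKM over the 6 libraries) among the biliary markers. Of the 8 hepatocyte markers, Ahsg (502 to 664 against 143 to 221 FPKM) and Ttr were lower without overlap, and the others overlapped. Pcna, the most abundant proliferation marker, overlapped too. The 6 endothelial markers summed to 159 FPKM in non-pregnant library 2 and to 10.9 to 23.1 FPKM in the other 5. Non-pregnant library 3 also stood apart, holding the highest value of 35.8% and the lowest value of 28.5% of all tested genes. In bulk RNA, a change in the number of cells of a type and a change in RNA per cell cannot be told apart.

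Sequences around the start sites were searched for the element that p53 binds. RefSeq windows of 300 bases (250 before and 50 after a transcription start, GRCm38.p6) were given for 8 of the 10 genes, in 11 windows, and not for Trp53inp1 and Zmat3. The p53 response element has 2 half-sites of 10 bases with the core CNNG and reads the same on both strands. A match kept the C and G of both cores, had at most 3 mismatches to the consensus over 20 positions and had at most 1 base between the half-sites. These limits were set after the windows of the members had been seen. Of all 32851 windows 2.82% held a match, and 3 members did: Ccng1 with 1 mismatch, Bax with 2 mismatches and a spacer of 1 base, and Bbc3 with 3 mismatches in 1 of its 3 windows. Only 0.11% of all windows held a match with at most 1 mismatch, as Ccng1 did. Allowing up to 13 bases between the half-sites, 15.6% of all windows matched and the number of members with a match was 3 as before.

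The 3 elements are printed here because they belong to genes with unlike values below: Bbc3 was higher in every pregnant library, while Bax and Ccng1 overlapped between the groups. Each is given 5′ to 3′ on the strand of its gene, with the matched element in capitals and 10 bases on either side.
Ccng1, chr11:40755452-40755491, minus strand, element 195 to 176 bases before the start: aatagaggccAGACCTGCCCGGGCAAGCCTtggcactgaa
Bax, chr7:45467069-45467109, minus strand, element 201 to 181 bases before the start: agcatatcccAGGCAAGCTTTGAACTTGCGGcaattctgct
Bbc3, chr7:16309476-16309515, plus strand, element 97 to 78 bases before the start and in an intron of the longer GENCODE gene model: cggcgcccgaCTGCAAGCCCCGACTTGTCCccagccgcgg
Such a match is a description of the letters and not a measurement of binding. For the other 5 members with a window, including Mdm2 and Fas, these letters were not found in the bases searched.

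Among the p53 targets, Bbc3 and Gdf15 lay higher and Fas lower in every pregnant library than in every non-pregnant one, while the feedback genes Mdm2 and Ccng1 and the pore-forming Bax overlapped between the groups. None of the 9 members with a mean of at least 1 FPKM passed the test across all genes (limma on log2(FPKM + 1), Benjamini-Hochberg adjusted p from 0.251 for Bbc3 to 0.945 for Bax), where 0.0876% of the 11412 tested genes passed at 0.05. At an unadjusted p under 0.05 there were 3 members, Bbc3 and Gdf15 higher and Fas lower. That is 2 of 9 higher, where 7.09% of all tested genes were, and 1 of 9 lower, where 6.3% were. The same 3 genes were those without overlap between the groups, and 9.9% of all tested genes lay higher and 12.2% lower without overlap. The median log2 change over the 9 tested members was -0.10, against -0.02 over all tested genes. Over all 10 members, with the untested Eda2r, it was -0.08. With limma-voom on recovered fragments 0 members passed as well, with 3 at an unadjusted p under 0.05. With limma's array weights, which give each library a weight by how well it fits its group, Bbc3 passed (adjusted p = 0.0352) in a fit that called 11.4% of all genes.

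**Figure D1:**
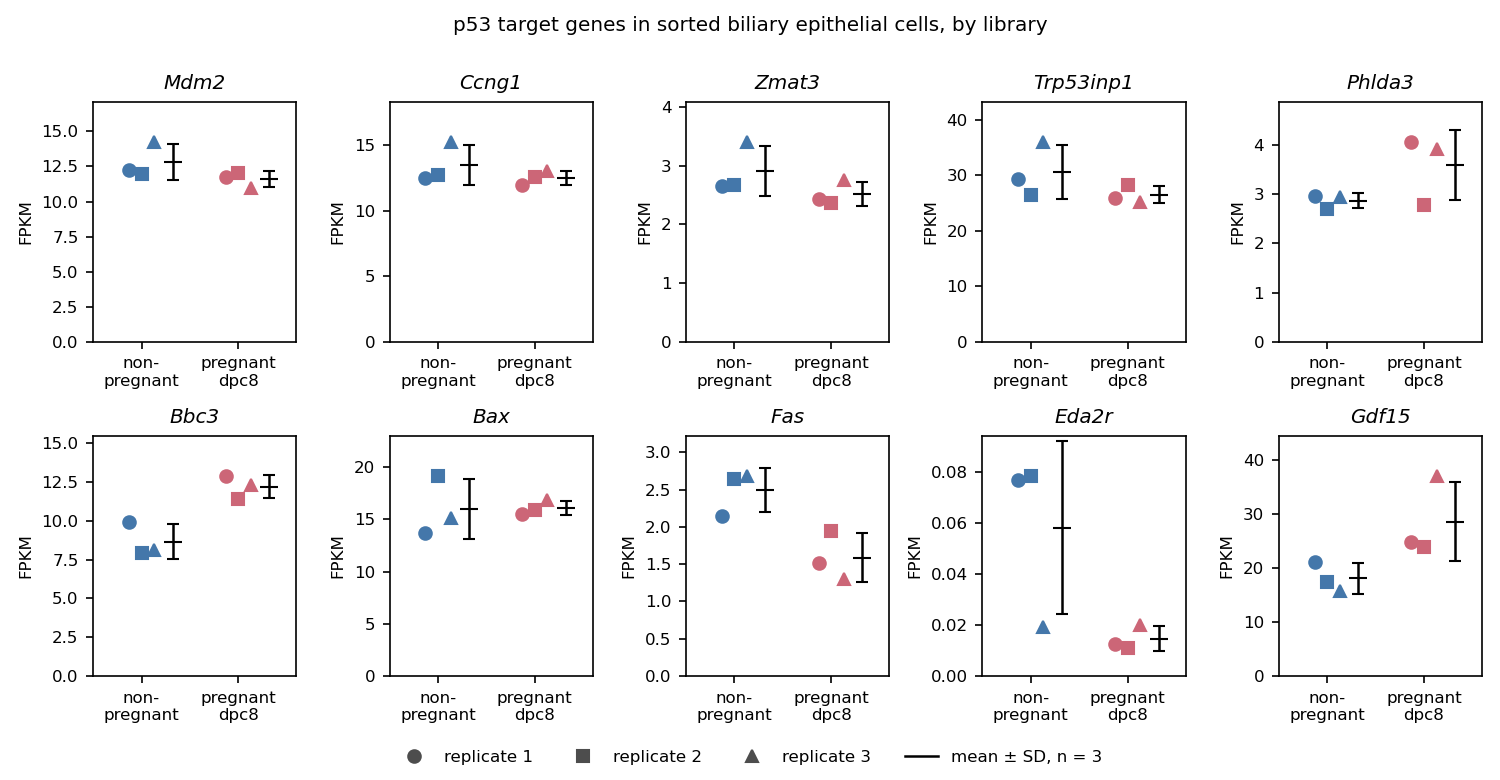
FPKM of the 10 p53 target genes in each library (blue, non-pregnant; red, pregnant at dpc8; marker shapes are replicate numbers, black bars the mean ± SD, n = 3). The pregnant libraries lie above all non-pregnant ones for Bbc3 and Gdf15 and below them for Fas, and non-pregnant library 3 (blue triangle) is highest for Mdm2, Ccng1, Zmat3 and Trp53inp1.

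The levels of the feedback genes overlapped between the groups. Mdm2 encodes the ubiquitin ligase that marks p53 for degradation. Mdm2 stood at 12.2, 11.9 and 14.3 FPKM in libraries 1 to 3 without pregnancy and at 11.8, 12.0 and 11.0 FPKM in pregnant libraries 1 to 3. Non-pregnant library 3 was highest and pregnant library 3 lowest. The log2 change was -0.13 ± 0.0876 (SE; limma adjusted p = 0.503), with a 95% interval from -0.33 to 0.07. Ccng1 encodes cyclin G, which directs a phosphatase to Mdm2. It stood at 12.5, 12.7 and 15.3 FPKM without pregnancy and at 12.0, 12.5 and 13.05 FPKM at dpc8. Non-pregnant library 3 was again the highest, and the log2 change was -0.10 (limma adjusted p = 0.623; 95% interval -0.31 to 0.11). Without that library the changes of Mdm2 and Ccng1 were -0.06 and -0.01.

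Zmat3, Trp53inp1 and Phlda3 act in the arrest, survival and stress branches. Zmat3 encodes an RNA-binding zinc finger protein that acts on the splicing and stability of transcripts. It stood at 2.65, 2.66 and 3.41 FPKM without pregnancy and at 2.44, 2.36 and 2.75 FPKM at dpc8, so that pregnant library 3 lay above non-pregnant libraries 1 and 2. Trp53inp1, a stress protein with roles in apoptosis and autophagy, had the highest non-pregnant mean of the 10 genes. It stood at 29.3, 26.5 and 36.0 FPKM without pregnancy and at 25.9, 28.2 and 25.2 FPKM at dpc8. The log2 changes were -0.15 for Zmat3 (limma adjusted p = 0.523; 95% interval -0.39 to 0.10) and -0.19 for Trp53inp1 (limma adjusted p = 0.461; 95% interval -0.46 to 0.08), and without non-pregnant library 3 both came closer to 0, at -0.06 and -0.07. Phlda3 encodes a small protein that competes with the kinase Akt for membrane lipids. It stood at 2.96, 2.69 and 2.95 FPKM without pregnancy and at 4.07, 2.78 and 3.93 FPKM at dpc8. Here pregnant library 2 sat within the non-pregnant range and the other pregnant libraries above it (log2 change 0.24 ± 0.124, SE; limma adjusted p = 0.421).

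Bbc3 had the smallest p of the members. It encodes PUMA, a BH3-only protein that binds the survival proteins of the BCL2 family and so frees the effectors of apoptosis. It stood at 9.94, 7.94 and 8.12 FPKM without pregnancy and at 12.9, 11.4 and 12.3 FPKM at dpc8. The lowest pregnant library was above the highest non-pregnant one, and the mean went from 8.67 ± 1.11 to 12.2 ± 0.756 FPKM (SD, n = 3 each), 1.41-fold higher. The log2 change was 0.45 ± 0.0986 (SE; unadjusted p = 0.00193, limma adjusted p = 0.251; 95% interval 0.22 to 0.68). It rested on 510 to 607 fragments per library in the non-pregnant and 660 to 748 in the pregnant group. Its sign held in all 18 alternative fits, with a change between 0.31 and 0.55. The filters, median-ratio scaling, other empirical Bayes settings and replicate block could not alter the change. Because the groups did not overlap, pseudocounts, array weights and leaving out a library could not turn its sign. Only the other scalings and limma-voom bear on the sign.

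Bax, the protein that opens the outer mitochondrial membrane, overlapped between the groups. It stood at 13.7, 19.2 and 15.1 FPKM without pregnancy and at 15.5, 15.9 and 16.8 FPKM at dpc8. All 3 pregnant values lay inside the non-pregnant range, whose highest value was in library 2, the library with the most endothelial transcripts. The means were 16.0 ± 2.85 and 16.1 ± 0.648 FPKM (SD, n = 3 each). The log2 change was 0.02 (limma adjusted p = 0.945), and its 95% interval from -0.25 to 0.30 still allows modest changes either way. The part of the endothelial transcripts in the Bax values was not tested. Without non-pregnant library 2 the change was 0.15. An overlapping same-strand gene model, Gm45808, shares 192 of the 1576 exonic bases of Bax. A small part of the Bax fragments may therefore not be assignable to Bax alone, and how such fragments were counted is not stated.

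The death receptors among the members were low. Fas, the receptor for Fas ligand, stood at 2.15, 2.65 and 2.69 FPKM without pregnancy and at 1.51, 1.95 and 1.303 FPKM at dpc8. The highest pregnant library was below the lowest non-pregnant one, by a small margin, and the ratio of means was 0.636. The log2 change was -0.44 ± 0.123 (SE; unadjusted p = 0.00768, limma adjusted p = 0.295; 95% interval -0.72 to -0.15), and it kept its sign in all 18 alternative fits. As for Bbc3, the filters, median-ratio scaling, other empirical Bayes settings and replicate block could not alter the change. Pseudocounts, array weights and leaving out a library could not turn its sign, since the groups did not overlap. Fas rested on 127, 165 and 195 fragments without pregnancy and on 83, 124 and 68 at dpc8. Because the pseudocount of 1 FPKM understates changes of low genes, the change of Fas was -0.63 with a pseudocount of 0.1.

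Eda2r, the receptor for an isoform of ectodysplasin, was barely detected and was not tested. It had 13, 14 and 4 fragments without pregnancy and 2, 2 and 3 fragments at dpc8, that is 0.0770, 0.0786 and 0.0193 FPKM against 0.0127, 0.0110 and 0.0201 FPKM. Non-pregnant library 3 lay among the pregnant libraries, just below pregnant library 3. The pooled ratio, adjusted for depth, was 0.258 with a 95% interval from 0.0959 to 0.597 (exact Clopper-Pearson), which covers counting error only and not the spread between libraries. In the fit with no filter on low values Eda2r had an unadjusted p of 0.0577 (limma adjusted p = 0.398).

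Gdf15 had the largest log2 change of the 9 tested members with all libraries in the fit. It encodes a secreted stress hormone of the TGF-beta superfamily that p53 and the integrated stress response induce, and it is known from pregnancy as a hormone that acts on the brainstem to reduce appetite. It stood at 21.1, 17.4 and 15.6 FPKM without pregnancy and at 24.8, 23.8 and 37.0 FPKM at dpc8. The groups did not overlap, and pregnant library 3 stood well above the other pregnant libraries. The means were 18.05 ± 2.82 and 28.5 ± 7.35 FPKM (SD, n = 3 each), 1.58-fold higher, and the log2 change was 0.61 ± 0.178 (SE; unadjusted p = 0.00902, limma adjusted p = 0.298; 95% interval 0.20 to 1.03). Without pregnant library 3 the change was 0.42, below that of Bbc3 at 0.45. The Kupffer cell marker sum was higher in the pregnant group too. Among the pregnant libraries it was lowest, 110 FPKM, in library 3, where Gdf15 was highest. The part of those cells in the Gdf15 values was not tested.

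**Figure D2:**
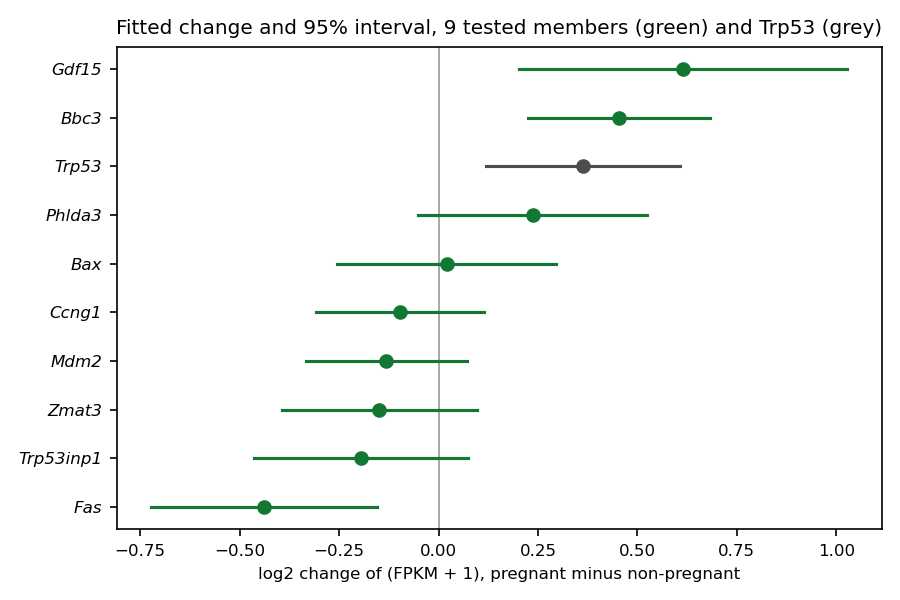
Fitted log2 change of (FPKM + 1), pregnant minus non-pregnant, with 95% intervals (lines) for the 9 tested members (green) and Trp53 (grey), sorted by size. The intervals of Gdf15, Bbc3, Trp53 and Fas leave out 0 before adjustment for the number of genes tested; after adjustment none passed.

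Non-pregnant library 3 was the highest of the 6 for 5 of the 9 tested members, Mdm2, Ccng1, Zmat3, Trp53inp1 and, narrowly, Fas, where it was highest for 35.8% of all tested genes. It was the lowest of the 6 for Gdf15. Bbc3 in that library, at 8.12 FPKM, was close to library 2. Phlda3 and Bax there were slightly below their means over the 6 libraries. Cdkn1a, which is named here because of its values, stood at 43.0, 24.4 and 85.1 FPKM without pregnancy and at 32.6, 27.6 and 24.4 FPKM at dpc8, highest in the same library (limma adjusted p = 0.450). The early stress gene Fos was also highest there, at 641 FPKM, with 425 to 521 FPKM in the other 5 libraries. The 10 dissociation stress genes, which rise when tissue is taken apart, summed to 3962 FPKM there and to 2811 to 3860 FPKM elsewhere. Of these 10, Fos, Jun, Junb and Hspa1b were highest in non-pregnant library 3. Egr1, Atf3, Hspa1a and Dusp1 were highest in pregnant library 3, and Ier2 and Fosb in pregnant library 1. The part of the dissociation stress genes in these values was not tested. Without non-pregnant library 3 the same 3 members, Bbc3, Gdf15 and Fas, were without overlap, 3 of 9, as were 31.8% of all tested genes. Without non-pregnant library 2 there were 6, with Bax, Mdm2 and Trp53inp1 added, as were 43.8% of all tested genes in that comparison.

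**Figure D3:**
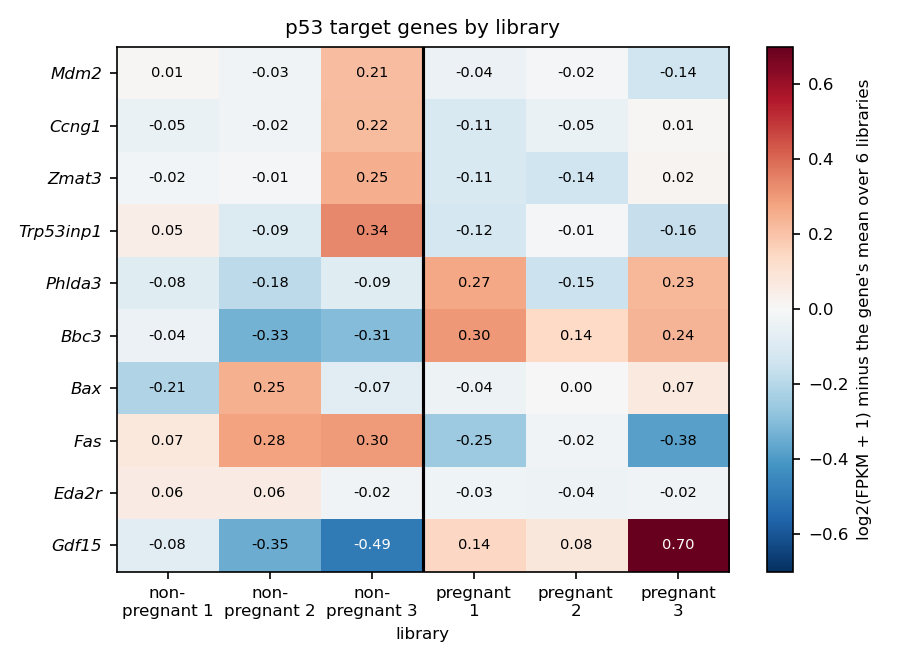
Each member's log2(FPKM + 1) in each library minus its mean over the 6 libraries (colour and printed value; red, above the mean; blue, below). Non-pregnant library 3 is 0.21 to 0.34 above the mean for Mdm2, Ccng1, Zmat3 and Trp53inp1 and 0.49 below it for Gdf15.

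The gene for p53 itself also lay higher in every pregnant library. Trp53 stood at 29.3, 26.9 and 22.7 FPKM without pregnancy and at 35.4, 31.5 and 34.97 FPKM at dpc8. It was 1.29-fold higher in the means, with a log2 change of 0.36 ± 0.105 (SE; unadjusted p = 0.00906, limma adjusted p = 0.298). Activity of p53 is set mostly through protein stability, which these data do not measure. Mdm4, the Mdm2 relative that blocks p53 as a transcription factor, stood at 11.0 ± 0.413 and 10.4 ± 0.881 FPKM (SD, n = 3 each). Of the 15 genes listed as p53 family and regulators 12 were tested and 0 passed, with a median log2 change of -0.04. Chek1, a kinase of the replication checkpoint, stood at 0.685 ± 0.166 and 1.37 ± 0.607 FPKM, without overlap, while the proliferation marker Mki67 stood at 1.24 ± 0.344 and 2.94 ± 0.705 FPKM in the same groups. Usp7, which removes ubiquitin from Mdm2 and p53, was lower without overlap, at 28.0 ± 2.07 and 24.5 ± 0.872 FPKM (limma unadjusted p = 0.0520). Rchy1, a further ubiquitin ligase for p53, was lower without overlap by a small margin (limma unadjusted p = 0.0851). It stood at 7.65, 6.89 and 10.8 FPKM without pregnancy and at 6.667, 6.665 and 6.649 FPKM at dpc8. Counting error alone is larger than the spread of these pregnant values.

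In all, 84 other genes of the pathway were listed and 71 were tested. None passed the test over all genes (limma adjusted p from 0.186), and 16 had an unadjusted p under 0.05, 8 higher and 8 lower, where 7.09% and 6.3% of all tested genes were. By limma-voom 13 were, where 1468 of 11252 genes were. Their median log2 change was -0.04. Of the 71 tested, 9 lay higher and 11 lower without overlap, where 9.9% and 12.2% of all tested genes did. Usp7, Rchy1, Ei24, Bcl2l2 and Tnfrsf10b were among these with an unadjusted p above 0.05 (limma). In the list of repair and metabolic targets 9 of 12 tested genes lay below 0, as did 6305 of all 11412, with a median of -0.09. Xpc, which recognises damaged bases in nucleotide excision repair, went from 14.9 ± 1.02 to 12.1 ± 0.571 FPKM (SD, n = 3 each). The translesion polymerase gene Polk stood at 6.17 ± 0.216 and 5.07 ± 0.0953 FPKM and the repair nuclease gene Ercc5 at 6.85 ± 0.575 and 5.65 ± 0.315 FPKM. Each of these 3 was lower in every pregnant library, with unadjusted p of 0.00700, 0.00975 and 0.0226 and limma adjusted p of 0.295, 0.298 and 0.322.

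Pltp, a phospholipid transfer protein of plasma in the same list, had the largest log2 change of the 71 tested. It stood at 0.559, 1.07 and 0.831 FPKM without pregnancy and at 3.31, 2.73 and 1.84 FPKM at dpc8 (log2 change 0.98 ± 0.176, SE; limma adjusted p = 0.186). In the pregnant libraries it stood in the order of the Kupffer cell marker sums, 181, 154 and 110 FPKM, and the part of those cells in its value was not tested. Without non-pregnant library 2 it was the only one of the 71 related genes to pass, in a fit that called 133 of 11412 genes.

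Targets for arrest and stress and those for apoptosis gave 0 passing genes of 11 and of 10 tested, with medians of -0.06 and 0.10. Plk2, a polo-like kinase, stood at 103 ± 3.60 and 91.1 ± 3.45 FPKM (SD, n = 3 each) without overlap. Sesn1, Gadd45a and Sertad1 overlapped between the groups. Bid, which death receptor signalling cleaves to reach the mitochondria, stood at 3.14 ± 0.107 and 3.84 ± 0.235 FPKM, and Tnfrsf10b, the TRAIL receptor, at 2.97 ± 0.209 and 3.46 ± 0.289 FPKM, both without overlap. Ei24 was lower without overlap, at 18.05, 18.1 and 33.6 against 16.0, 16.6 and 14.04 FPKM, with non-pregnant library 3 far above the rest. Dram1, a lysosomal protein of autophagy, overlapped.

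The BCL2 family, on which Bbc3 and Bax act, had 10 of 14 genes tested, 0 passing and a median log2 change of 0.06. Bik, another BH3-only gene, differed from Bbc3 in sign. It stood at 9.44, 8.59 and 11.5 FPKM without pregnancy and at 6.84, 6.84 and 6.85 FPKM at dpc8 (log2 change -0.46 ± 0.105, SE; limma adjusted p = 0.279). The close agreement of the pregnant values overstates their precision, since counting error alone is larger. Bmf, also BH3-only, stood at 35.2 ± 6.69 and 27.3 ± 4.42 FPKM (SD, n = 3 each), with overlap. The effector Bok was at 7.97 ± 0.627 and 9.88 ± 1.15 FPKM and the survival gene Bcl2l2 at 12.8 ± 0.649 and 11.4 ± 0.433 FPKM, both without overlap.

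The death receptor and caspase list, downstream and beside Fas, had 13 of 14 genes tested, 0 passing and a median of -0.06. Tnfrsf21, death receptor DR6, stood at 6.26, 5.59 and 7.84 FPKM without pregnancy and at 12.1, 8.90 and 10.1 FPKM at dpc8, 1.58-fold higher (log2 change 0.59 ± 0.139, SE; limma adjusted p = 0.279). It lay in the opposite direction from Fas. Ripk1, a kinase that links death receptors to survival or necroptosis, was lower without overlap, at 10.4 ± 0.404 and 8.71 ± 0.346 FPKM (SD, n = 3 each). Fasl, the ligand of Fas, which lymphocytes make, was too low to be tested and had 9 fragments in all without pregnancy and 34 at dpc8. Adjusted for depth, the ratio was 4.32 (95% interval 2.03 to 10.2, counting error only). The 8 markers of lymphocytes and neutrophils summed to 1.53 to 2.31 FPKM in non-pregnant and 2.78 to 3.34 FPKM in pregnant libraries. Most of each sum was Cd79a, at 1.45 to 2.04 and 2.27 to 2.60 FPKM, and 6 of the 8 were at 0 in some library. The part of those cells in Fasl was not tested.

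Of the partners of Eda2r and Gdf15, 3 of 7 genes were tested and 0 passed. Eda, which encodes the ectodysplasin ligands, stood at 2.28, 1.87 and 2.25 FPKM without pregnancy and at 1.51, 1.48 and 1.47 FPKM at dpc8, lower without overlap (log2 change -0.33 ± 0.0946, SE; limma adjusted p = 0.295). Tnfrsf19, a receptor of the same branch of the TNF receptor family, was far more abundant than Eda2r, at 31.3 ± 5.59 and 37.5 ± 2.18 FPKM (SD, n = 3 each). The adaptor Traf6 stood at 10.01 ± 2.01 and 8.32 ± 0.206 FPKM, and both overlapped. Gfral, the receptor of Gdf15, had no fragment in any library, which with 3 fragments as the limit allows up to 0.0411 to 0.0576 FPKM per library.

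**Figure D4:**
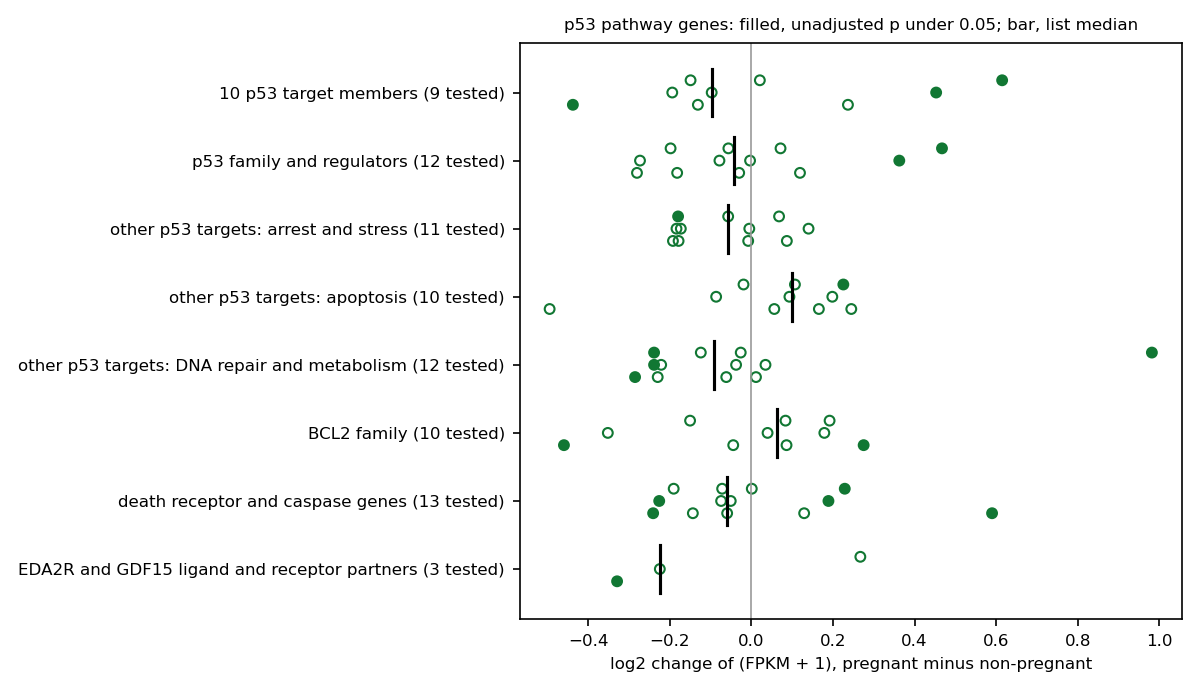
Log2 change of (FPKM + 1), pregnant minus non-pregnant, for each tested gene (circles) of the p53 target members and of 7 lists of related genes, with filled circles for an unadjusted p under 0.05 and bars for the list median. The medians lie between -0.22 and 0.10, and no gene passed after adjustment.

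By position in mm10, Bbc3 (ENSMUSG00000002083) spans chromosome 7 from 16308393 to 16318205 and Bax (ENSMUSG00000003873) chromosome 7 from 45461697 to 45466898. Gdf15 (ENSMUSG00000038508) lies on chromosome 8 from 70629393 to 70632456, Fas (ENSMUSG00000024778) on chromosome 19 from 34290666 to 34327772, Mdm2 (ENSMUSG00000020184) on chromosome 10 from 117688875 to 117710758 and Ccng1 (ENSMUSG00000020326) on chromosome 11 from 40748552 to 40755311. The exons of these genes other than Bax overlapped no other annotated gene.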

How the data were processed

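The authors deposited FPKM values, 1 column per library, for 21700 genes. Per the submitters' processing notes, cutadapt 3.4, STAR 2.7.9a, HTSeq 0.13.5, DESeq2 1.30.1 and mm10 were used, with no roles given. Median-ratio size factors computed from the deposited values were 1 in all 6 libraries. FPKM times GENCODE vM21 exon length (28 genes had none) was a whole multiple of 1 step per library for 98.5% of values above 0 (tolerance 0.01), which gave fragments. Groups and replicate numbers come from the titles. The sample descriptions number non-pregnant library 3 as 4.

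Genes averaging 1 FPKM or more (11412) were tested on log2(FPKM + 1) by a two-sided moderated test with an intensity trend (limma 3.58.1, R 4.3.3). Benjamini-Hochberg adjustment covered all of them, and the threshold was 0.05. The fit was checked on simulated data. Fragments were also fitted with limma-voom. Python 3.11.15 and pandas 2.3.3 made the tables. Promoter windows come from RefSeq. All 10 members are described, and of each related list up to 4 genes by smallest p, plus Trp53 and Mdm4; some genes that this rule names are not reported here. Members and lists were chosen with earlier results of these data known. Alternatives were pseudocounts, filters, scalings, empirical Bayes settings, array weights, a replicate block and leaving out each library.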

Additional observations from a re-analysis of the deposited data

How the results depend on the processing

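No member passed in 17 of 18 alternatives, and with array weights 1 did, Bbc3, along with 9 of the related genes and 1301 genes in all. The number of genes called over all, 10, was 0 with no filter on low values (2258 at an unadjusted p under 0.05), 5 with robust empirical Bayes and 1 with limma-voom on recovered fragments, and 0 to 133 when 1 library was left out. Leaving out non-pregnant library 2 gave 133 and pregnant library 3 gave 12, and each of the other 4 libraries, left out, gave 0 (857 to 1419 at an unadjusted p under 0.05). Related genes called numbered 0 to 1 when 1 library was left out. The median log2 change of all 10 members, -0.08, was -0.12 and -0.11 with pseudocounts of 0.1 and 0.5, -0.045 with array weights, -0.12 with limma-voom and between -0.11 and -0.034 when 1 library was left out. Bax alone changed sign, between -0.078 and 0.15 when 1 library was left out. The count of members without overlap, taken without non-pregnant libraries 2 and 3 in turn, was chosen after seeing the data. With the replicate block 0 members and 13 genes passed. Same-numbered libraries did not deviate together (correlations of 0.068, 0.019 and -0.138, with -0.152 to 0.103 between differently numbered ones). Deviations from means of 3 libraries cannot decide whether the numbers pair them.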
